A study of Mus musculus with 12 samples.

Results

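The response of colonic epithelium to 48 h of dextran sulfate sodium (DSS) was followed in mice that lack Nfkb2, by comparing the 3 samples titled as treated knockout with the 3 titled as untreated knockout, 6 of the 12 samples of the study. All 12 came from C57BL/6 mice aged 7 to 9 weeks, and the other 6 were wild type, 3 untreated and 3 given DSS for 48 h. The labels give the knockout genotype as Nfkb2-/- and name no Cre or promoter that would limit it to one cell type. They do not give the DSS concentration or say whether animals were pooled, and the study describes each group as 3 biological replicates. Epithelial cells were shaken off opened colons in buffer with 30 mM EDTA, and by flow cytometry typically about 90% of them carried EpCAM and lacked CD45.2. RNA was converted to libraries by SMART-seq2 from 2 ng of total RNA.

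DSS is a sulfated polysaccharide that mice drink, and it injures the surface and the crypts of the colonic epithelium. Nfkb2 encodes p100, a protein of the NF-kB family that holds other NF-kB subunits in the cytoplasm and that is processed to p52 in the noncanonical pathway, where p52 pairs with RelB. The colonic epithelium is renewed by Lgr5-positive stem cells at the crypt base, whose progeny divide and then mature into absorptive colonocytes, which take up salt and water, and into mucus-secreting goblet cells. The comparison asks what the first 48 h of DSS do to this tissue when p100 and p52 are missing.

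Total counts were 7246017, 8117740 and 8084565 in the untreated knockout libraries and 5595909, 6754645 and 7142061 in those under DSS, and ranged from 6043476 to 7743079 in wild type. Values are given as CPM, the field's unit for a count relative to its library's total, here after TMM scaling, and 3 counts correspond to 0.370 to 0.536 CPM in the knockout libraries. The first principal component over the 6 knockout libraries held 34.5% of the variance and put all untreated libraries on one side and all DSS libraries on the other. The targeted gene Nfkb2 was at 11.7, 17.5 and 13.9 CPM in untreated knockout and 19.6, 15.6 and 17.2 CPM in knockout under DSS, against 30.8, 36.1 and 43.7 CPM and 41.6, 46.1 and 39.6 CPM in wild type. All 6 knockout values lay below all 6 wild-type values (difference -1.31 in log2 CPM, exact two-sided permutation test, p = 0.00216, the smallest this design allows). The labels give the wild-type and the knockout libraries separate consecutive library numbers, so for differences in level between the genotypes the genotype and the order of preparation cannot be told apart. Nfkb2 shares exon sequence with Psd, and its remaining reads cannot be assigned to one of them. Of the genes for NF-kB subunits and their kinases, 0 of 18 passed under DSS in knockout cells by edgeR or DESeq2, with 2 at an unadjusted p under 0.05, and Rela, at 58.8, 35.0 and 62.3 CPM untreated and 73.2, 76.4 and 77.0 CPM under DSS, did not pass (edgeR adjusted p 0.263, log2 fold change 0.54).

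Of the markers of cells outside the epithelium, Lcp1 and Lyz2 passed under DSS in these libraries, and the summed levels of some lists were higher. Among all genes tested 1.88% passed as higher. Of 6 pan-leukocyte markers tested, 1 passed, Lcp1, and their summed level was 106 to 131 CPM in untreated knockout and 159 to 200 CPM under DSS, so the groups did not overlap. In wild type this sum was 39.7 to 54.5 CPM untreated and 59.4 to 76.5 CPM under DSS. Of 11 myeloid markers tested 1 passed, Lyz2, the lysozyme of macrophages and neutrophils, which rose from 4.98, 6.59 and 7.13 CPM to 27.4, 18.8 and 30.2 CPM (edgeR adjusted p 0.00421). Of the 11, 10 had positive log2 fold changes, with a median of 1.60, 8 had an unadjusted p under 0.05 and DESeq2 called 5, while with the replicate number as a block 1 rose and 1 fell. The myeloid sum was 65.6 to 89.1 CPM untreated and 95.6 to 119 CPM under DSS. None of 11 T lymphocyte markers passed, with overlapping sums of 56.8 to 77.3 CPM and 71.3 to 107 CPM, and none of the 4 tested B and plasma cell markers or 4 stromal and endothelial markers did. The B and plasma cell sums were 18.8 to 22.9 CPM and 17.0 to 40.05 CPM, and the stromal and endothelial sums were 13.9 to 15.5 CPM untreated and 17.8 to 30.05 CPM under DSS, without overlap. At an unadjusted p under 0.05 the T lymphocyte, B cell and stromal lists held 0, 0 and 1 gene, and DESeq2 called 0 in each. No pan-leukocyte, T lymphocyte, myeloid or B cell marker was at 0 in all 6 knockout libraries, while 4 of the 14 listed stromal and endothelial markers were. The 10 epithelial identity markers summed to between 25610 and 29990 CPM in every knockout library. Lcp1 did not pass without untreated replicate 2 or 3 or without DSS replicate 1 or 3 (edgeR adjusted p up to 0.129), whereas Lyz2 passed without any single library. The part of these cells in the results below was not tested.

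Of 12522 genes tested, 491 changed under DSS in knockout cells by edgeR's quasi-likelihood test at a Benjamini-Hochberg adjusted p under 0.05, which is 3.92%. Of these, 235 were higher (1.88% of genes tested) and 256 were lower (2.04%), and 203 differed at least 2-fold. The median log2 fold change over all genes tested was 0.015. In wild type 789 genes passed (6.30%), and the interaction, which is the knockout change minus the wild-type change, passed for 213 genes (1.70%). Of the 491, 199 also passed in wild type in the same direction (1.59% of genes tested) and 27 in the opposite direction (0.216%), and 265 did not pass in wild type. The interaction passed for 113 of the 491, so for most of the 265 a difference between genotypes was not shown. The number of calls rested on every library, since leaving out untreated replicate 1, 2 or 3 gave 262, 235 and 241 calls, and leaving out DSS replicate 1, 2 or 3 gave 302, 250 and 283. Without wild-type untreated replicate 3 the interaction passed for 350 genes, and without wild-type DSS replicate 1, 2 or 3 the wild-type count was 483, 523 and 512.

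Interferon-stimulated genes rose. Type I and type III interferons act through a transcription factor complex that holds STAT2 and IRF9 and binds the interferon-stimulated response element, and interferon-gamma induces the transcription factor IRF1. Of 44 type I interferon-stimulated genes tested, 36 rose and none fell in knockout cells under DSS, against 1.88% higher among all genes. This list and those below were chosen with earlier results of these data known. Their shares therefore describe the lists and are not independent support. All 44 had positive log2 fold changes, with a median of 0.69. Fits that left out 1 knockout library called 24 to 31 of them, the lowest count without untreated replicate 3.

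The promoters of several of these genes carry the core of the response element, which is GAAA, then any 2 bases, then GAAA. It was searched on both strands. RefSeq promoter windows of GRCm38.p6, which run from 250 bases before to 50 bases after the annotated start, held it in 3.44% of 32851 windows and in 3.93% of 9475 tested genes with a window. It was in 15 of the 33 type I interferon-stimulated genes that had a window. The stretches below come from the 6 passing members with the smallest p that hold it before the start. None is contained whole in an annotated transcript, and partial overlap was not checked. The stretches are written in the direction of the gene, with the match in capitals (TTTC is GAAA on the other strand). A match describes the letters in this window and is not evidence of binding.
Ifit3, chr19:34583343-34583412, plus strand: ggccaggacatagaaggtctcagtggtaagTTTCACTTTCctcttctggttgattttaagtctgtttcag
Ifit3b, chr19:34607739-34607808, plus strand: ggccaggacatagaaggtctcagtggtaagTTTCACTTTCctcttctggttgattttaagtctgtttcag
Stat2, chr10:128270248-128270315, plus strand: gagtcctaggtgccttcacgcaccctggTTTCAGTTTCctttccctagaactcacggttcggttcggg
Rsad2, chr12:26456533-26456602, minus strand: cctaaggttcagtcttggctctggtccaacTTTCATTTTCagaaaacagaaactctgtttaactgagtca
Trim30a, chr7:104465194-104465259, minus strand: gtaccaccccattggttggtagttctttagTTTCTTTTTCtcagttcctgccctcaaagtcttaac
Oas1g, chr5:120887614-120887661, minus strand: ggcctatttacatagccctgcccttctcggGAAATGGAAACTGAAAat
The stretches of Ifit3 and Ifit3b are the same 70 bases, and 51.2% of the 50-base words of Ifit3 transcripts are found in another gene, so reads cannot be assigned between these genes with certainty. The capitals of Oas1g hold 2 overlapping copies.

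Mx1 and Mx2, genes of the dynamin-like GTPase family, had the largest log2 fold changes of the 44. Mx1 (chromosome 16 from 97447035 to 97462907 of GRCm38) stood at 15.6, 16.4 and 17.1 CPM in the untreated knockout libraries and at 73.2, 68.1 and 93.4 CPM under DSS. The DSS libraries were all more than 3 times any untreated one, and the log2 fold change was 2.26 (standard error 0.20, edgeR adjusted p 2.09e-05). In wild type the levels were 22.3, 31.3 and 37.4 CPM untreated and 31.3, 32.1 and 29.8 CPM under DSS, which overlapped, with a log2 fold change of 0.04. Mx2 rose from 6.46, 7.45 and 5.58 CPM to 33.2, 35.0 and 27.7 CPM in knockout cells (log2 fold change 2.30, edgeR adjusted p 7.86e-05). Ifit2 and Ifit3 belong to a family of proteins that bind viral RNA. Ifit3 rose from 63.7, 61.6 and 54.7 CPM to 156, 165 and 137 CPM (log2 fold change 1.35, standard error 0.13, edgeR adjusted p 3.28e-05), and Ifit2 from 227, 235 and 194 CPM to 466, 407 and 427 CPM. Cmpk2, a nucleotide kinase next to Rsad2 in the genome, rose from 71.8, 77.8 and 69.6 CPM to 160.3, 173 and 164 CPM (log2 fold change 1.18, standard error 0.11). Its neighbour Rsad2, which makes viperin, rose from 28.8, 27.8 and 27.6 CPM to 59.6, 47.9 and 54.2 CPM (edgeR adjusted p 0.00375). In each of these genes the knockout groups were apart, and each passed without any 1 knockout library.

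Among the regulators of this response, Stat2, a part of the factor that binds the element, rose from 126, 140.2 and 118 CPM to 256, 238 and 243 CPM, a log2 fold change of 0.94 (standard error 0.10, edgeR adjusted p 6.99e-05). Irf7, which drives transcription of interferon genes, rose from 476, 432 and 434 CPM to 776, 726 and 699.7 CPM, a smaller log2 fold change of 0.71 at a higher level. Trim30a and Oas1g, whose promoters are shown above, had log2 fold changes of 0.68 and 0.48. They are the less stable of the 6, since Trim30a did not pass without untreated replicate 3 (edgeR adjusted p 0.0530) and Oas1g without untreated replicate 1 or 3 (0.0528 and 0.0556). Of a list of genes for interferons, their receptors, nucleic acid sensors and feedback inhibitors, 2 of 19 tested rose (1.88% among all genes). These were the inhibitors Socs3 and Socs1, so no interferon, receptor or sensor gene passed, and none of the list fell. Socs3, a target of STAT3, went from 22.3, 18.1 and 15.3 CPM to 47.7, 51.0 and 45.6 CPM (log2 fold change 1.37, edgeR adjusted p 0.00179), and passed also in wild type (2.19). Socs1 had a log2 fold change of 1.52 and did not pass without untreated replicate 1 or 2 or without DSS replicate 2 or 3 (edgeR adjusted p up to 0.104). Ifnb1, Ifna4 and Ifnl2, genes for interferons of types I and III, had 0 counts in all 12 libraries, which at these depths allows up to 0.536 CPM in a single knockout library for counting error alone. Ifnl3, also of type III, had 1 count in DSS replicate 3 of knockout and 0 in every other library. No interferon protein was measured.

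**Figure D1:**
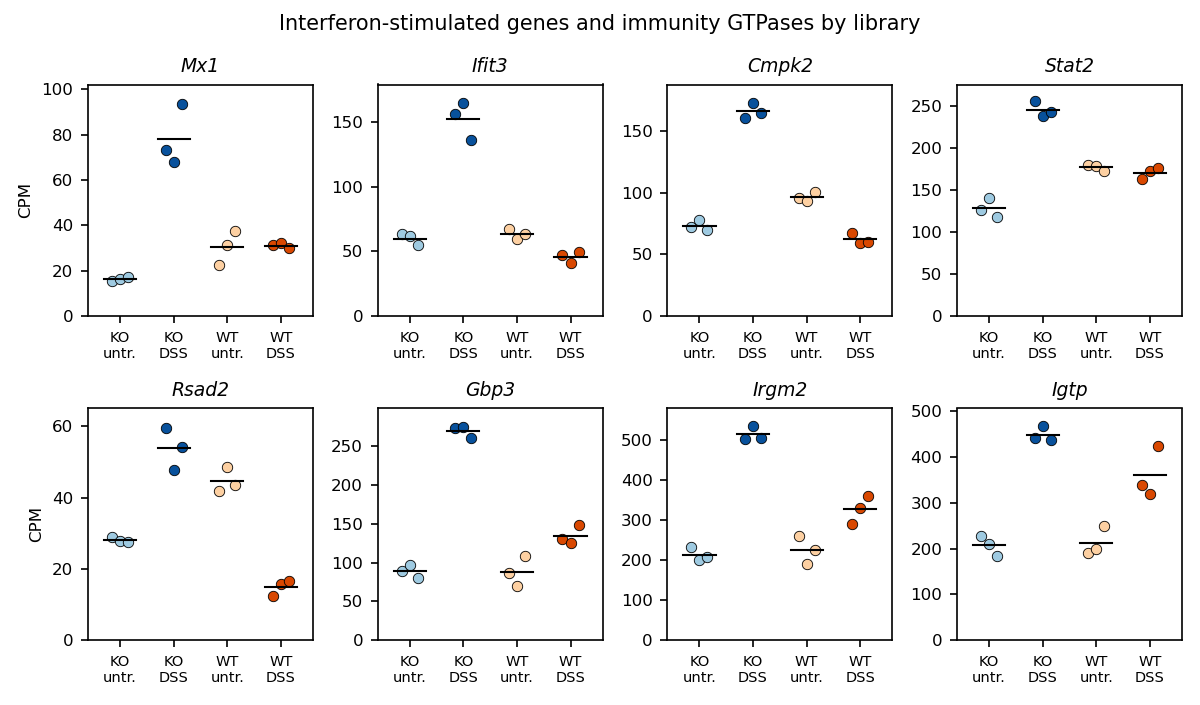
Each panel plots 1 gene in CPM on a linear axis from 0, with 3 points for the libraries of a group and a bar at their mean. Mx1, Ifit3, Cmpk2, Stat2 and Rsad2 passed as higher under DSS in knockout cells and not in wild type, while Gbp3, Irgm2 and Igtp passed as higher in both genotypes.

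In wild type, 18 of the same 44 genes fell and 1 rose under DSS (3.50% and 2.80% among all genes), with a median log2 fold change of -0.38. Without wild-type DSS replicate 3, 14 fell and none rose. The interaction was positive and passed for 34 of the 44, against 1.17% of all genes, and for 28 to 35 when any 1 of the 12 libraries was left out. Rsad2 had log2 fold changes of 0.94 in knockout and -1.59 in wild type (interaction 2.53, edgeR adjusted p 4.52e-05). In Stat2 the interaction of 0.99 came with a wild-type change of -0.05 that did not pass (edgeR adjusted p 0.871). The summed level of the 44 genes was 5712 to 6100 CPM in untreated knockout and 9353 to 9655 CPM in knockout under DSS. In wild type it was 7203 to 8205 CPM untreated and 5855 to 6026 CPM under DSS, and the untreated knockout range overlaps the wild-type range under DSS. The pan-leukocyte sum given above was higher under DSS in both genotypes. The part of leukocytes in the change of these 44 genes was not tested in either genotype.

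Genes that interferon-gamma is best known to induce rose in both genotypes. Of 23 guanylate-binding proteins, immunity-related GTPases, chemokines and related genes tested, 17 rose and none fell in knockout cells, with a median log2 fold change of 1.27. In wild type 16 rose and none fell, with a median of 0.74, and 10 rose without wild-type DSS replicate 3. The share higher over all genes was 1.88% in knockout cells and 2.80% in wild type. Leaving out any 1 knockout library gave 13 to 15 calls among the 23. Promoter windows of 10 of the 15 members that had one held the pair of GAAA boxes.

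Gbp3, a guanylate-binding protein that attacks intracellular microbes, rose from 89.4, 96.3 and 80.4 CPM to 274, 275 and 261 CPM in knockout cells (log2 fold change 1.61, standard error 0.14, edgeR adjusted p 2.15e-05). Gbp7 rose from 72.2, 59.7 and 64.6 CPM to 205, 166 and 182 CPM. Irgm1, Irgm2 and Igtp, immunity-related GTPases that act on pathogen vacuoles, rose by log2 fold changes of 0.93, 1.27 and 1.11, and Irgm2 stood at 233, 199.7 and 208 CPM untreated and 503, 535 and 507 CPM under DSS. Irgm2 and Igtp share annotated exons, and reads there cannot be assigned to one of them. Tgtp1 and Tgtp2, a pair of near-identical GTPases, rose by 1.83 and 1.58, and as 81.2% and 86.6% of their 50-base words are found in another gene their reads cannot be told apart. Irf8, a transcription factor of this response, rose from 163, 138 and 140.0 CPM to 296, 263 and 266 CPM. The groups were apart in each of these genes, and each passed without any 1 knockout library. The T cell attractant Cxcl10 rose from 7.14, 10.6 and 13.7 CPM to 22.6, 34.4 and 34.4 CPM (log2 fold change 1.54, edgeR adjusted p 0.0219), but did not pass without untreated replicate 1 or 2 or DSS replicate 2 or 3 (edgeR adjusted p up to 0.102). Ido1, which breaks down tryptophan, had 12.1, 11.8 and 10.9 CPM untreated and 14.1, 23.9 and 18.7 CPM under DSS in knockout cells and did not pass there (edgeR adjusted p 0.144), whereas in wild type it rose by 4.24 (interaction -3.54, edgeR adjusted p 6.76e-05).

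Antigen presentation genes changed less and in both directions. Of 21 MHC class I genes tested, 4 rose and none fell, against 1.88% higher among all genes, with a median log2 fold change of 0.22. The 4 were Tap1, Tap2, Tapbp and H2-Q6, and 2 passed in each fit that left out 1 knockout library, Tap1 and H2-Q6. Tap1, a subunit of the peptide transporter of the endoplasmic reticulum, rose from 336, 354 and 327 CPM to 526, 600.4 and 566 CPM (log2 fold change 0.73, edgeR adjusted p 0.000291). H2-Q6, a class I heavy chain with 35.0% of its 50-base words also found in another gene, rose from 158, 167 and 164 CPM to 254, 269 and 244 CPM. Of 8 MHC class II genes, 2 fell and 1 rose (2.04% and 1.88% among all genes). H2-Aa, an alpha chain that presents peptides to CD4 T cells, fell from 655, 893 and 777 CPM to 389.6, 544 and 511 CPM (log2 fold change -0.69, standard error 0.13, edgeR adjusted p 0.00905), and its beta chain partner H2-Ab1 fell by 0.51 on the log2 scale. Their master regulator Ciita rose by 0.74. H2-Aa did not pass without untreated replicate 2 (edgeR adjusted p 0.0517), H2-Ab1 passed only without DSS replicate 2 among the 6 fits that left a library out, and Ciita only without untreated replicate 2. The sum of the class II list in knockout cells was 4826 to 5336 CPM untreated and 4031 to 4576 CPM under DSS. In wild type 4 of the 8 class II genes rose and none fell (2.80% and 3.50% among all genes), with a median log2 fold change of 0.44. The interaction was negative and passed for 5 of the 8, against 0.527% of all genes. The pan-leukocyte and myeloid sums given above were higher under DSS, and the part of these cells in the class II changes was not tested.

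**Figure D2:**
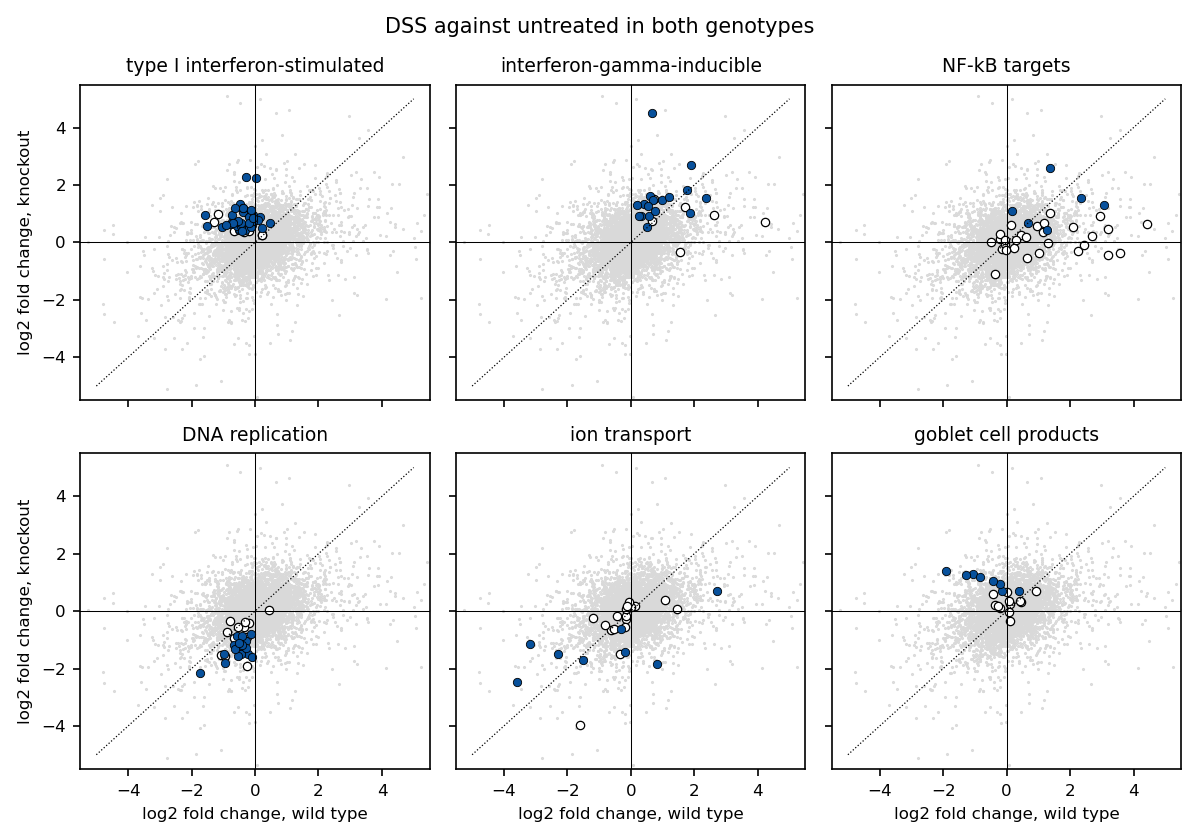
Each panel plots the log2 fold change of DSS against untreated in knockout cells (vertical) against that in wild type (horizontal) for the tested members of 1 list, over all genes tested in grey, with the dotted line at equal change. Filled circles passed in knockout cells. All 44 type I interferon-stimulated genes have positive values in knockout cells, against a median of -0.38 in wild type, and the NF-kB targets have medians of 0.23 in knockout and 1.02 in wild type.

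DNA replication genes fell. Before a cell divides, the MCM2 to MCM7 helicase is loaded on DNA and PCNA and the polymerases copy it, and the genes for these proteins are known targets of E2F transcription factors. Of 32 replication genes tested, 18 fell and none rose in knockout cells under DSS, against 2.04% lower among all genes, with a median log2 fold change of -1.14. The 3 DSS values were all below the untreated ones for 27 of the 32, against 12.3% of all genes. Fits that left out 1 knockout library called 11 to 15 of them, with 11 without DSS replicate 2. Fewer dividing cells and less of this RNA per cell cannot be told apart in bulk samples, and this holds for every cell type below. Of 29 genes of mitosis, 9 fell and none rose, all 29 had negative log2 fold changes (median -0.64), and 14 fell with the replicate number as a block. The mitotic calls depended on single libraries, with 3, 2 and 3 made without untreated replicate 1, 2 or 3, and 6, 4 and 5 without DSS replicate 1, 2 or 3.

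E2F-type sites were looked for in the promoters of the replication list after its change was seen, as TTTCCCGC or TTTGGCGC on either strand. They occurred in 1.56% of all windows, in 3.48% of tested genes with a window, and in 8 of the 26 replication genes that had one. The stretches below are from the 3 passing members that hold a site before the start, in a stretch not contained whole in an annotated transcript. They show the site in capitals, in the direction of the gene. Mcm3 and Cdt1, which also passed, hold theirs only after the start (Cdt1 did not pass without any 1 knockout library), and the stretch of Mcm7 lies within annotated transcripts of Mcm7 and its neighbour Ap4m1.
Mcm5, chr8:75109330-75109397, plus strand: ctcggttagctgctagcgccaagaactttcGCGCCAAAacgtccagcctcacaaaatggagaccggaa
Mcm6, chr1:128359778-128359845, minus strand: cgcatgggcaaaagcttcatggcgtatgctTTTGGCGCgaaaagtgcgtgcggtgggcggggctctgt
Pola1, chrX:93632256-93632323, minus strand: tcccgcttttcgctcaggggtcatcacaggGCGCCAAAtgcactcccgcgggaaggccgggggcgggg
The capitals in Mcm5 and Pola1 read GCGCCAAA, which is TTTGGCGC on the other strand. No window of the mitosis list held either site.

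Mcm5 (chromosome 8 from 75109569 to 75128439), a helicase subunit, was at 72.2, 76.9 and 62.9 CPM in untreated knockout and 22.8, 22.7 and 29.9 CPM under DSS, with no overlap (log2 fold change -1.49, standard error 0.18, edgeR adjusted p 0.000234). Its wild-type levels were 49.99, 62.0 and 73.1 CPM untreated and 48.7, 59.1 and 50.6 CPM under DSS, and the interaction passed (-1.26, edgeR adjusted p 0.0123). Mcm6 fell from 114, 129 and 129.6 CPM to 53.6, 47.2 and 32.1 CPM, and Mcm3 from 62.9, 60.3 and 53.7 CPM to 20.3, 24.0 and 23.6 CPM. Mcm7 fell by 1.30 on the log2 scale, but shares exons with Ap4m1 and Cops6. Pola1, the catalytic subunit of the primase-polymerase that starts each new strand, fell from 25.04, 22.3 and 19.4 CPM to 9.55, 4.30 and 9.01 CPM. Rrm2, the regulated subunit of ribonucleotide reductase, which supplies nucleotides, fell from 51.7, 50.7 and 44.6 CPM to 11.3, 22.8 and 18.2 CPM (log2 fold change -1.48, edgeR adjusted p 0.00301) and also in wild type (-0.97). Pcna, the sliding clamp, fell by 0.81 on the log2 scale. Each of these passed without any 1 knockout library. Cdc7, the kinase that fires origins, fell from 16.3, 10.9 and 16.6 CPM to 4.95, 3.41 and 1.66 CPM (-2.14), but did not pass without untreated replicate 1 or 3 or without DSS replicate 2 or 3 (edgeR adjusted p up to 0.0695). In wild type 2 of the 32 fell (3.50% among all genes), with a median of -0.43, and the interaction was negative and passed for 2 (0.527% among all genes), Mcm5 and Mcm6. It passed for 7 without wild-type untreated replicate 3, for 2 without DSS replicate 1 of knockout, and for 1, Mcm5, without any other single library. None of the 32 fell in wild type without its untreated replicate 3 or without its DSS replicate 1 or 2.

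Among the mitosis genes, Cdk1, the mitotic kinase, fell from 66.6, 84.7 and 75.4 CPM to 42.1, 43.3 and 38.8 CPM (log2 fold change -0.87, edgeR adjusted p 0.00200). Top2a, which untangles copied chromosomes, fell from 238, 229.8 and 194 CPM to 128, 132 and 115 CPM. Both passed without any 1 knockout library. Fbxo5, an inhibitor of the anaphase-promoting complex, and Pclaf, a PCNA partner, were among the 12 largest falls of genes averaging at least 3 in log2 CPM whose groups did not overlap, with log2 fold changes of -1.94 and -1.83. Cdkn1a, the p21 inhibitor of cyclin-dependent kinases, also fell, from 138, 154 and 136 CPM to 85.7, 89.6 and 88.8 CPM (log2 fold change -0.70, edgeR adjusted p 0.00140), and fell in wild type (-0.46). Of 18 p53 targets and cell cycle inhibitors, 2 rose, Btg2 and Fas, and 1 fell, Cdkn1a (1.88% and 2.04% among all genes), with 1 more fall under the replicate block. Btg2, an antiproliferative gene, rose from 385, 388 and 362 CPM to 534, 529 and 517 CPM, and the death receptor gene Fas did not pass without untreated replicate 3 (edgeR adjusted p 0.0530).

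Stem cell genes fell too. Of 14 stem cell and Wnt target genes tested, 5 fell and none rose in knockout cells, against 2.04% lower among all genes. Smoc2, a secreted matricellular protein of crypt base cells, fell from 52.0, 61.1 and 66.1 CPM to 13.4, 20.2 and 11.4 CPM (log2 fold change -1.99, standard error 0.33, edgeR adjusted p 0.00368). Lgr5, the R-spondin receptor that marks the stem cells, was at 21.7, 19.0 and 13.2 CPM untreated and 0.707, 0 and 0.970 CPM under DSS, near the level of 3 counts. Ascl2, the transcription factor that keeps the stem cell state, was at 6.19, 9.89 and 9.03 CPM and 0.884, 0.445 and 0.554 CPM. Every DSS library was under every untreated one in all 3 genes. At these counts the calls for Lgr5 and Ascl2 (edgeR adjusted p 0.0162 and 0.0193) were lost without untreated replicate 1 or any DSS replicate for Lgr5 (up to 0.0732), and without untreated replicate 2 or 3 or any DSS replicate for Ascl2 (up to 0.0926). Fits without single libraries called 1 or 2 of the list, with 1 without DSS replicate 1 or 3, and Smoc2 passed in all of them. Untreated wild-type libraries were spread widely in these genes, with Smoc2 at 23.9, 25.3 and 63.7 CPM and Lgr5 at 4.52, 0.328 and 9.27 CPM, and the interaction did not pass for either (edgeR adjusted p 0.480 and 0.476). Cd44 also passed but did not without any 1 knockout library (edgeR adjusted p up to 0.141), and Prom1 passed without DSS replicate 2 and not without any other one (up to 0.141).

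Nox1, a superoxide-producing oxidase of the colonic epithelium, fell in knockout cells from 189.7, 191 and 174 CPM to 85.6, 75.9 and 69.0 CPM (log2 fold change -1.27, edgeR adjusted p 0.00905). In wild type it was at 70.5, 40.4 and 111 CPM untreated and 101, 100.4 and 111 CPM under DSS, and the interaction passed (-1.75, edgeR adjusted p 0.0138). Nox1 shares annotated exons with Cstf2. Nos2, the inducible nitric oxide synthase, rose in knockout cells from 20.6, 23.8 and 20.8 CPM to 43.0, 55.0 and 62.1 CPM (1.30) and by more in wild type (3.06, interaction edgeR adjusted p 0.00456). Duoxa2, needed to mature the hydrogen peroxide-producing oxidase DUOX2, rose from 14.1, 13.4 and 9.03 CPM to 25.6, 23.6 and 25.5 CPM, and 41.1% of its 50-base words are shared with another gene. Of the 8 oxidase and nitric oxide synthase genes, 3 rose and 1 fell in knockout cells (1.88% and 2.04% among all genes). The other rise was in Cybb, the phagocyte oxidase, which did not pass without any 1 of the 6 libraries (edgeR adjusted p up to 0.141). The leukocyte marker sums were higher under DSS too, and their part in this rise was not tested.

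**Figure D3:**
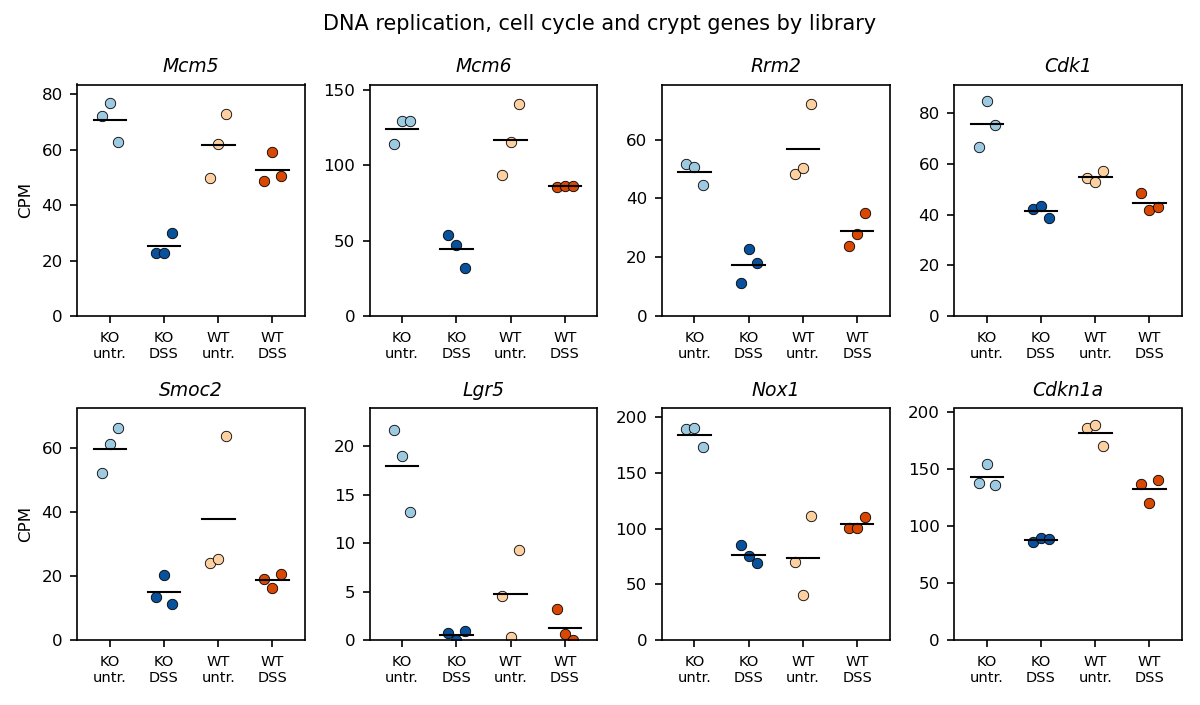
Each panel plots 1 gene in CPM on a linear axis from 0, with 3 points for the libraries of a group and a bar at their mean. In knockout cells the DSS libraries lie below the untreated ones in all 8 genes, while in wild type the groups overlap in Mcm5, Lgr5 and Nox1.

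Genes of salt and water uptake fell. Surface colonocytes take up sodium chloride through the sodium-hydrogen exchanger encoded by Slc9a3 and the chloride-bicarbonate exchanger encoded by Slc26a3. Of 25 genes for sodium, chloride and anion transport tested, 7 fell and 1 rose in knockout cells, with a median log2 fold change of -0.48, and of 11 aquaporins and carbonic anhydrases 4 fell and none rose. Over all genes tested the shares were 2.04% lower and 1.88% higher. Slc9a3 fell from 92.8, 94.8 and 82.5 CPM to 17.0, 17.1 and 15.4 CPM, and in wild type from 135, 125 and 119 CPM to 10.3, 12 and 9.13 CPM, a larger fall there (interaction 1.13, edgeR adjusted p 0.00675). Slc26a3 fell from 1186, 1140.5 and 1137 CPM to 355, 395 and 322 CPM (log2 fold change -1.69, standard error 0.15, edgeR adjusted p 2.09e-05), and in wild type by 1.51 on the log2 scale (interaction -0.19, standard error 0.20, edgeR adjusted p 0.867). Sgk1, a kinase that raises sodium uptake, fell from 132, 167 and 153 CPM to 49.3, 53.2 and 58.8 CPM. Atp12a, the colonic hydrogen-potassium pump, fell from 869, 859.5 and 821 CPM to 278, 345 and 337 CPM in knockout cells (log2 fold change -1.41, edgeR adjusted p 0.000181). In wild type Atp12a was at 484, 416 and 271 CPM untreated and 347, 342 and 336 CPM under DSS, and the interaction passed (-1.22, edgeR adjusted p 0.00978). Scnn1b, a subunit of the epithelial sodium channel, passed in knockout cells (-1.83, edgeR adjusted p 0.0467), but did not with the replicate block (0.0507) or without any 1 knockout library (up to 0.203). Clca4b, the member that rose, did not pass without any 1 knockout library either (up to 0.140).

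Among the water channels, Aqp8 fell from 491, 472 and 465 CPM to 118, 122 and 116 CPM (log2 fold change -2.00, standard error 0.23) and Aqp1 from 30.3, 23.9 and 26.1 CPM to 9.90, 3.86 and 5.54 CPM. Car4, a carbonic anhydrase on the colonocyte surface that handles bicarbonate, fell from 875, 922 and 870.1 CPM to 202, 265 and 222 CPM, a log2 fold change of -1.95 against -2.09 in wild type (interaction 0.14, standard error 0.23, edgeR adjusted p 0.933). Car1, the abundant cytosolic form, fell from 2403, 2809 and 2444 CPM to 1496, 1898 and 1484 CPM (-0.65), which is less than in wild type (-2.34, interaction edgeR adjusted p 0.000199). Aqp8, Aqp1 and Car4 passed without any 1 knockout library, and Car1 did not without untreated replicate 2 or DSS replicate 1 or 3 (edgeR adjusted p up to 0.0622).

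Products of mature colonocytes fell. Of 25 brush border and colonocyte genes, 8 fell and none rose, against 2.04% lower among all genes. Negative log2 fold changes were seen in 24, and the median was -0.41. Krt20, the keratin of surface cells, fell from 1913, 1953 and 1784 CPM to 778, 748 and 703 CPM (log2 fold change -1.34, edgeR adjusted p 2.09e-05), and in wild type by 1.33 on the log2 scale (interaction -0.01, standard error 0.16). Tmigd1, an adhesion protein of the microvilli, fell from 55.3, 52.97 and 45.3 CPM to 12.02, 16.6 and 12.2 CPM, and further in wild type (-1.91 against -3.64, interaction edgeR adjusted p 0.00133). Both passed without any 1 knockout library, but the count of the list fell to between 2 and 5 in such fits, with 4, 2 and 5 without untreated replicate 1, 2 or 3, and 3, 4 and 4 without DSS replicate 1, 2 or 3. Guca2a, the hormone guanylin that acts on fluid secretion, fell from 179, 275 and 240.5 CPM to 80.1, 109.9 and 106 CPM, and did not pass without untreated replicate 2 or DSS replicate 1 (edgeR adjusted p 0.0543 and 0.0598). In wild type 15 of the 25 fell (3.50% among all genes), with a median of -0.80. The interaction was positive and passed for 3 (1.17% among all genes), and for 9 without wild-type untreated replicate 3. Vil1, an actin bundler of the microvillus core, had a log2 fold change of -0.42 that did not pass (edgeR adjusted p 0.106), but passed with the replicate block (0.0293).

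Detoxifying enzymes of the same cells fell as well. Of 27 genes of xenobiotic metabolism, 10 fell and none rose, against 2.04% lower among all genes. Cyp4f14, a cytochrome P450 that hydroxylates fatty acids and leukotrienes, fell from 151, 157 and 141 CPM to 62.2, 64.8 and 62.8 CPM (log2 fold change -1.24, edgeR adjusted p 6.99e-05). Cyp2c55 and Cyp2c65, P450 enzymes that oxidise fatty acids, had log2 fold changes of -0.74 and -1.16, against -2.77 and -2.26 in wild type (interaction edgeR adjusted p 5.67e-05 and 0.0100). Abcg2, a drug efflux pump, fell from 153, 115 and 116 CPM to 50.4, 56.0 and 58.3 CPM. These 4 passed without any 1 knockout library, while the count over the list was 5 without DSS replicate 3, 6 without untreated replicate 1 or 2, and 8 in the other such fits. Cdx2, the transcription factor that sets intestinal identity, fell from 174, 179 and 178 CPM to 114, 111 and 89.9 CPM (-0.76, edgeR adjusted p 0.00727) and also in wild type (-1.52, interaction 0.76, edgeR adjusted p 0.0798). Emp1, an epithelial membrane protein, fell from 467, 505 and 445 CPM to 195, 199.7 and 197 CPM and by more in wild type (-1.26 against -2.86, interaction edgeR adjusted p 0.000211).

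Goblet cell products rose in knockout cells. Of 20 tested, 8 rose and none fell, against 1.88% higher among all genes, with a median log2 fold change of 0.64. In wild type 3 fell and 1 rose (3.50% and 2.80% among all genes), and the wild-type rise passed in 1 of the 6 fits that left out a wild-type library. The list's sum was 15060 to 16320 CPM in untreated knockout and 28630 to 32250 CPM under DSS, against 19870 to 31930 CPM and 16350 to 18580 CPM in wild type, where the lowest untreated value was that of replicate 3. Clca1 (chromosome 3 from 145003817 to 145032776), a secreted protease that processes mucus, was at 6607, 6534 and 5974 CPM untreated and 15894, 16174 and 14535 CPM under DSS, with the groups far apart (log2 fold change 1.29, standard error 0.16, edgeR adjusted p 0.000291). In wild type it went from 19686, 16423 and 10415 CPM to 7477, 7559 and 7386 CPM (-1.05), and the interaction was 2.34 (edgeR adjusted p 5.55e-05). Muc2, the mucin that forms the colonic mucus gel, rose from 3409.9, 3569 and 3874 CPM to 5771, 5974 and 5846 CPM (log2 fold change 0.70, standard error 0.10), with an interaction of 0.84. Both passed without any 1 knockout library. Ang4, an antimicrobial ribonuclease, rose from 65.4, 97.0 and 96.6 CPM to 203, 227 and 259.7 CPM and fell in wild type (1.41 against -1.92). Retnlb, a resistin-like antibacterial protein, rose from 12.7, 18.1 and 21.4 CPM to 33.8, 39.7 and 51.3 CPM (edgeR adjusted p 0.0485), also against a fall in wild type (-1.27). Ang4 did not pass in knockout cells without untreated replicate 1 or DSS replicate 2 or 3 (edgeR adjusted p up to 0.0721) and Retnlb without any 1 knockout library (up to 0.182), while the interaction of each passed in all such fits. Over the list, 5, 4 and 3 members passed without untreated replicate 1, 2 or 3, and 4, 3 and 4 without DSS replicate 1, 2 or 3. The interaction was positive and passed for 5 of the 20 (1.17% among all genes), and for 8 without wild-type untreated replicate 3.

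The rise did not extend to every goblet gene. Tff3, a trefoil peptide, and Agr2, which folds mucins, had log2 fold changes of 0.31 and 0.24 with overlapping groups, and neither passed (edgeR adjusted p 0.605 and 0.699). Hsd17b13, a lipid droplet protein chosen here after its values were seen, had the widest opposite change of the 27 genes that passed in opposite directions. It rose in knockout cells from 4.58, 4.27 and 5.11 CPM to 31.1, 37.1 and 31.6 CPM and fell in wild type (2.83 against -1.80). Of those 27, 26 rose in knockout cells and fell in wild type. All 9 tested tuft cell markers had positive log2 fold changes (median 0.85), but none passed by edgeR or DESeq2, with 2 at an unadjusted p under 0.05, and their summed level was 19.2 to 24.4 CPM untreated and 30.8 to 44.6 CPM under DSS. In wild type the tuft sum was 34.8 to 57.3 CPM untreated and 22.8 to 27.4 CPM under DSS, and none passed there either. Of 12 enteroendocrine markers 1 rose (1.88% among all genes), Tac1, which makes substance P (1.20), and none fell. Tac1 did not pass without untreated replicate 1 or 2 or DSS replicate 2 or 3 (edgeR adjusted p up to 0.114).

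**Figure D4:**
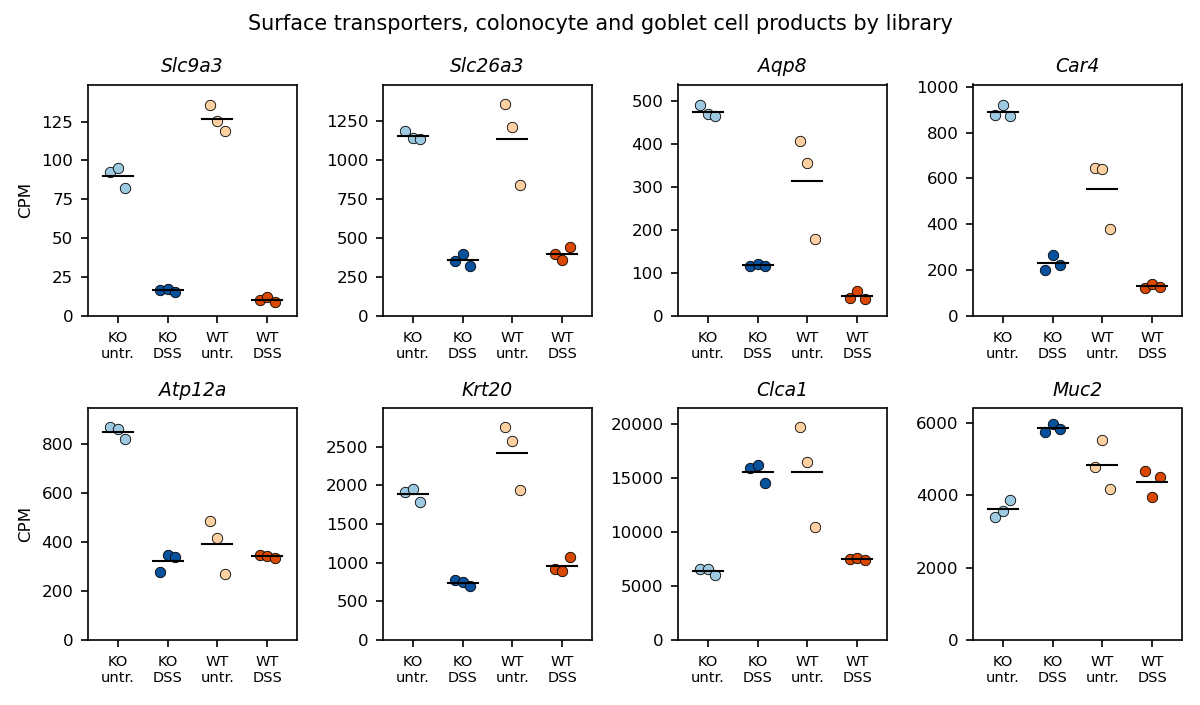
Each panel plots 1 gene in CPM on a linear axis from 0, with 3 points for the libraries of a group and a bar at their mean. Slc9a3, Slc26a3, Aqp8, Car4 and Krt20 passed as lower under DSS in both genotypes, Atp12a as lower in knockout cells, and Clca1 and Muc2 as higher in knockout cells.

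Some NF-kB targets rose in knockout cells. Of 35 NF-kB targets tested, 6 rose (17.1%, against 1.88% of all genes) and none fell, or 1 with the replicate block, with a median log2 fold change of 0.23, against 14 that rose in wild type with a median of 1.02. In wild type 2.80% of all genes rose. The interaction was negative and passed for 8 of the 35, against 0.527% of all genes. Il1rn, the interleukin-1 receptor antagonist, rose from 197, 207 and 205 CPM to 344, 324 and 313 CPM (log2 fold change 0.69, edgeR adjusted p 0.00419) and in wild type by 0.68 (interaction 0.01, standard error 0.17). Il1rn and Nos2 passed without any 1 knockout library, and the count over the list fell to 2, 2 and 3 without untreated replicate 1, 2 or 3, and to 4, 3 and 2 without DSS replicate 1, 2 or 3. Ccl20, which draws in dendritic cells, had 21.9, 28.4 and 19.7 CPM untreated and 20.0, 19.4 and 17.7 CPM under DSS, overlapping values with no call (edgeR adjusted p 0.608), while it rose in wild type from 1.89, 2.79 and 1.55 CPM to 11.7, 9.47 and 8.81 CPM (interaction -2.56, edgeR adjusted p 0.00130). Its untreated knockout values were all above the untreated wild-type ones. Muc1, a transmembrane mucin, was at 8.89, 10.9 and 7.49 CPM and 12.7, 16.2 and 12.6 CPM in knockout against 14.3, 11.8 and 8.34 CPM and 87.0, 109 and 104 CPM in wild type (interaction -2.51, edgeR adjusted p 0.000408), and did not pass in knockout cells.

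Of 17 acute-phase genes and receptors of STAT3 cytokines, 6 rose (1.88% among all genes) and none fell in knockout cells, or 1 fell with the replicate block. Lrg1, a secreted leucine-rich glycoprotein, rose from 1.62, 1.46 and 1.19 CPM to 9.55, 8.75 and 12.5 CPM (log2 fold change 2.85). Even so, every knockout library under DSS was far below the wild-type libraries under DSS (314, 346 and 298 CPM). Lbp, which presents bacterial lipopolysaccharide, rose from 8.35, 9.40 and 8.32 CPM to 22.98, 19.6 and 31.5 CPM (1.51), less than in wild type (3.88, interaction edgeR adjusted p 0.00967), and did not pass without untreated replicate 1 or 3 or DSS replicate 3 (edgeR adjusted p up to 0.0592). The list's count was 2, 4 and 3 without untreated replicate 1, 2 or 3, and 5, 3 and 2 without DSS replicate 1, 2 or 3.

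Stress genes were mixed. Of 17 heat-shock chaperones, 2 rose, Hspa1a and Dnajb1, and 3 fell, Hsp90aa1, Hspd1 and Stip1 (1.88% and 2.04% among all genes). The falls were 0.45, 0.41 and 0.49 on the log2 scale, and none passed in 5 of the 6 fits that left out a library, with 1 passing without DSS replicate 3. For Hsp90aa1 and Hspd1, 47.5% and 42.1% of the 50-base words are found in another gene. Hspa1a, the inducible Hsp70, rose from 4.71, 4.52 and 3.09 CPM to 20.7, 20.0 and 17.0 CPM, and as 66.3% of its 50-base words are found in another gene its reads cannot be assigned to it alone. Its co-chaperone Dnajb1 rose from 105, 98.1 and 100.4 CPM to 154, 159 and 156 CPM (log2 fold change 0.63, edgeR adjusted p 0.00158). Of 19 immediate early genes 6 rose and none fell, among them Junb, from 350.4, 330.3 and 341 CPM to 461, 476 and 456 CPM, and Zfp36, which destabilises cytokine messages, from 167, 187 and 174 CPM to 264, 250.4 and 266 CPM, and 2, 3 and 3 rose without untreated replicate 1, 2 or 3 and 3, 3 and 4 without DSS replicate 1, 2 or 3. In wild type 10 of the 19 rose, and the share higher over all genes was 1.88% in knockout cells and 2.80% in wild type. Immediate early genes also respond to handling of tissue, and its part here was not tested. In the lists of endoplasmic reticulum stress (23 genes tested), antioxidant Nrf2 targets and metallothioneins (16), cholesterol and fatty acid synthesis (30), respiratory chain subunits (35) and glycolysis (18), no gene passed in knockout cells by edgeR. In the same order 3, 3, 5, 0 and 6 genes had an unadjusted p under 0.05, DESeq2 called 0, 2, 1, 0 and 3, and edgeR with the replicate block called 1, 2, 1, 0 and 2. Of 14 clock genes, Cry1 fell from 27.5, 33.9 and 26.0 CPM to 11.7, 14.5 and 7.07 CPM (edgeR adjusted p 0.00468), and also in wild type (-1.05). The list also held 1 fall and 1 rise that depended on single libraries, those of Arntl (-0.63) and Nr1d1 (0.54), with edgeR adjusted p up to 0.149 and 0.173 when single knockout libraries were left out, and no labels give the time of day of collection.

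Some of the largest changes lay outside these lists. Zan, a gene known for the sperm protein zonadhesin, rose from 18.6, 15.9 and 21.1 CPM to 57.6, 65.2 and 57.5 CPM, but shares exon sequence with Ephb4, and unstranded reads cannot be assigned between them. Camk2b, a calcium-dependent kinase, rose from 9.56, 9.89 and 8.32 CPM to 26.7, 31.7 and 37.1 CPM (1.78) and in wild type by 1.84 (interaction -0.06, standard error 0.49), and did not pass without untreated replicate 3 or DSS replicate 3 (edgeR adjusted p 0.0589 and 0.0502). Zfp367, a zinc finger protein, fell from 32.7, 29.8 and 21.9 CPM to 6.72, 4.60 and 10.1 CPM. Pla2g4c, a cytosolic phospholipase, fell from 241, 228 and 215 CPM to 109, 126 and 102 CPM in knockout cells, a log2 fold change of -1.02 against -4.04 in wild type (interaction edgeR adjusted p 1.43e-05). 2010109I03Rik, a gene named by its clone, had a log2 fold change of -2.13, against -4.79 in wild type (interaction edgeR adjusted p 0.00804). Of the 113 genes that passed in knockout cells and in the interaction, 70 rose with a positive and 11 with a negative interaction, and 21 fell with a positive and 11 with a negative one.

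**Figure D5:**
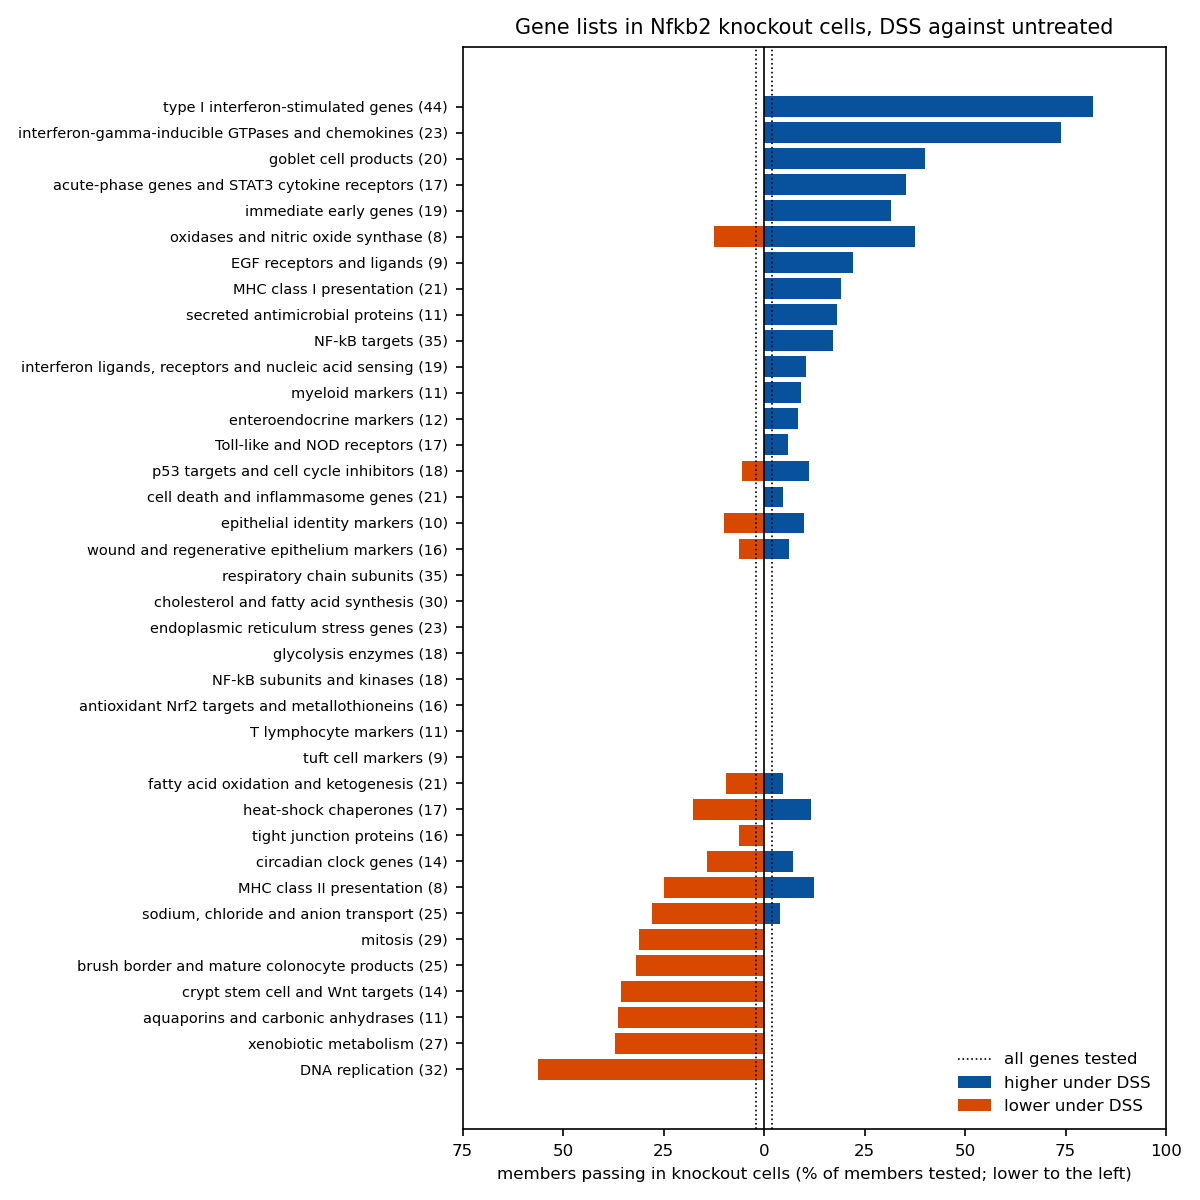
Bars give, for each list with at least 8 genes tested (number in brackets), the share of tested members that passed in knockout cells, higher to the right and lower to the left, and dotted lines mark 1.88% and 2.04% among all genes tested. The longest bars on the higher side are those of the 2 interferon target lists, with 36 of 44 and 17 of 23 genes, and on the lower side that of DNA replication, with 18 of 32. The lists were chosen with earlier results of these data known.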

How the data were processed

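Deposited values were gene counts from SMART-seq2 libraries, aligned with STAR 2.5.2b to GRCm38 (mm10) and counted with featureCounts 1.5.0, per the submitters' processing notes. The annotation release and strand setting are not given in the sources used here, and the method has no molecular identifiers, so floors cover counting error only. Symbols came from GENCODE M21 for 46005 of 46517 gene IDs. The 12522 genes kept by filterByExpr held 99.8% of counts. They were fitted as counts over all 12 samples with edgeR 4.0.16 (R 4.3.3, limma 3.58.1) by TMM scaling and quasi-likelihood tests with Benjamini-Hochberg adjustment, without a replicate block. The fit was tested on simulated data with a common spread for all genes and independent libraries. That test cannot show how the fit treats the gene-by-gene spread or the pairing of these libraries. DESeq2 1.42.0, other scaling and filters, replicate blocks and fits without each library were alternatives.

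Total counts ran from 5595909 to 8117740 per library. The labels call the replicates biological but do not tie them to animals, so p-values measure the spread between these samples. Same-numbered untreated and DSS knockout libraries deviated together (correlations 0.204, 0.106 and 0.127), so the fits with a replicate block paired them by number. The main fit, which gave the calls unless stated otherwise, did not use this pairing. It called 491 genes in knockout cells, and the fit with the block called 616, of which 470 were shared. The rule for naming genes took the 12 largest rises and falls without overlap at a mean log2 CPM of at least 3, up to 6 passing members with the smallest p per list, the 6 largest interactions in each direction, and those whose promoter is shown. Of the genes the rule gave, those that carry a result are described. Vil1, Clca4b, Scnn1b, Irf7, Tff3, Agr2, Pola1, Cdt1 and Hsd17b13 fall outside it and were chosen after their values were seen, as were the E2F-type letters. Members and lists were chosen with earlier results of these data known.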

Additional observations from a re-analysis of the deposited data

Results flagged for a closer look

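The genes below passed edgeR's test of the interaction, so their response to DSS differed between knockout and wild type. Each value is the interaction, the knockout change minus the wild-type change, as a log2 difference with 3 samples in each of 4 groups. For the interferon-stimulated genes it was 2.58 for Mx2, 2.22 for Mx1, 1.82 for Cmpk2, 1.82 for Ifit3, 0.99 for Stat2, 1.22 for Ifit2, 2.53 for Rsad2, 1.38 for Trim30a, 0.99 for Oas1g, 1.41 for Ifit3b and 1.45 for Irf7. For the GTPases that interferon-gamma induces it was 0.998 for Gbp3, 0.60 for Irgm1 and 0.73 for Irgm2. For goblet genes, with Hsd17b13 beside them, it was 2.34 for Clca1, 0.84 for Muc2, 3.33 for Ang4, 2.53 for Retnlb and 4.63 for Hsd17b13. For genes of absorptive cells and others that fell in both genotypes, and by less in knockout cells, it was 1.13 for Slc9a3, 1.73 for Tmigd1, 0.82 for Sgk1, 1.69 for Car1, 1.10 for Cyp2c65, 2.03 for Cyp2c55, 1.60 for Emp1, 3.02 for Pla2g4c, 2.66 for 2010109I03Rik and 0.82 for Prom1. For genes with a larger rise in wild type it was -3.27 for Lrg1, -1.77 for Nos2, -2.38 for Lbp, -2.51 for Muc1, -3.54 for Ido1, -2.56 for Ccl20, -3.09 for Tac1, -2.00 for Clca4b and -0.999 for Nr1d1. For genes with a more negative change in knockout cells it was -1.26 for Mcm5, -1.06 for Mcm6, -1.75 for Nox1, -1.22 for Atp12a, -0.96 for H2-Aa and -0.84 for H2-Ab1. For other genes it was 1.91 for Hspa1a and 1.36 for Zan. The interaction of Gbp3, H2-Ab1, Irgm1, Irgm2, Mcm6, Prom1, Sgk1 and Zan did not pass in every fit that left out 1 library.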

How the results depend on the processing

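The count of genes past the threshold in knockout cells was 491, and became 776 with no filter on low counts and 800 with DESeq2, and 235 to 302 when 1 library was left out. The interaction count of 213 became 356 with no filter and 360 with DESeq2, and ran from 152 to 350 without single libraries. The wild-type count of 789 became 467 with the wild-type samples alone and ran from 483 to 958 without single libraries. With the replicate block, which pairs same-numbered libraries, 616 genes passed in knockout cells, 470 of them shared with the fit without it. For the described genes the block ended the call of Scnn1b in knockout cells and gave one to Vil1, and changed no other knockout call. It also ended the interaction call of Irgm2 (edgeR adjusted p 0.0526). A block shared by both genotypes, added after seeing the data, left 409 and ended the knockout calls of 13 described genes, Arntl, Cd44, Ciita, Clca4b, Cybb, Hsp90aa1, Hspd1, Nr1d1, Prom1, Retnlb, Scnn1b, Tap2 and Tapbp, and the interactions of Irgm2, Mcm6 and Prom1. The cause of these shifts was not tested, except that fits without a library hold fewer samples. None of the described genes changed sign in knockout cells under any alternative run. Depth limits genes at a few counts, such as Lgr5 and Ascl2, and with 3 libraries a group a gene that did not pass may still differ.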
